A study of Homo sapiens with 18 samples.

Results

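The 34 genes described here encode the enzymes and transporters of glycolysis and the core of the cellular response to low oxygen. They were taken by gene symbol from a list that was chosen with earlier results of these data known. All 34 had exactly 1 row among the 26863 symbols of the expression table that remained after mitochondrially encoded rows were removed. The cells were 16D, a castration-resistant prostate cancer line derived from LNCaP, and all of them, controls included, had received Cas9 and a guide RNA by lentivirus. In control cells the guide (sgAAVS) is directed at the AAVS safe-harbour site, and guides 1 and 2 (sgOGDHL_1 and sgOGDHL_2) at OGDHL, whose product resembles OGDH, the enzyme of the citric acid cycle that consumes 2-oxoglutarate. The cells were then kept for 6 weeks in DMSO or in 10 µM enzalutamide (Enza), an androgen receptor antagonist, which gave 6 groups of 3 libraries, 18 in all. Whether each line was a pool of edited cells or a clone is not given in the sources used here, nor is whether the replicates were separate cultures, so a p-value here reflects only how far these libraries spread, which may be technical.

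Glycolysis splits glucose into pyruvate in the cytosol: glucose enters through SLC2A1, hexokinases trap it as a phosphate, phosphofructokinase commits it to breakdown, and lactate dehydrogenase converts the resulting pyruvate to lactate, which leaves through the carriers SLC16A1 and SLC16A3. Many of these genes are targets of the hypoxia-inducible factors, which pair an oxygen-regulated alpha subunit (HIF1A or EPAS1) with the stable partner ARNT and bind a short core motif in promoters. The alpha subunits are marked for destruction by prolyl hydroxylases that use oxygen and 2-oxoglutarate, so their activity is set mainly through the protein and need not follow the RNA level. Prostate cancer cells that depend on the androgen receptor use it to drive part of their glucose metabolism.

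Values are in TPM, a level per transcript length that sums to the same total in every library, rescaled here after removal of the mitochondrially encoded rows. TPM keep no record of read number, so the depth behind each value is unknown. Changes are differences of mean log2(TPM + 1), tested with limma over the 16067 genes that reached 1 TPM in 3 or more libraries, and called at a Benjamini-Hochberg adjusted p under 0.05. This scale understates the change of genes near 1 TPM. Of the 34 genes, 32 were tested, and CA9 and SLC16A3 stayed under the minimum in every library.

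Some libraries stood apart. Mitochondrially encoded rows had held 50.1% to 73.8% of the TPM, and in the guide 1 DMSO replicates 1, 2 and 3 they had held 73.8%, 69.9% and 57.2%. The 3 libraries labelled guide 2 in DMSO correlated with the others at r = 0.937 to 0.956 across genes, against 0.971 to 0.997 among the other 15 (genes are not independent replicates). They had 1407 to 1630 rows at 0 against 3042 to 4498 elsewhere, and their 5 leukocyte markers summed to 24.0 to 29.7 TPM, against 0.894 to 2.17 TPM in the other groups, with 2 of the 5 reaching 1 TPM there and 1 elsewhere. Prostate luminal markers summed to between 2342 and 6115 TPM, all 8 of them reaching 1 TPM in every group. Their sum was 5697 to 6115 TPM with guide 1 in Enza and 2342 to 2519 TPM in control Enza. The 4 endothelial markers stayed under 1 TPM. The 5 fibroblast markers summed to 14.0 to 15.1 TPM in control DMSO and 8.56 to 9.48 TPM in control Enza. In DMSO and Enza they summed to 15.1 to 17.6 and 9.89 to 11.1 TPM with guide 1, and 15.2 to 19.4 and 11.2 to 11.9 TPM with guide 2. OGDHL, at 4.72 ± 0.125 TPM in control cells in DMSO (SD, n = 3), fell with guide 1 in DMSO (2.46 ± 0.633 TPM, adjusted p = 0.0014) and Enza, and with guide 2 in Enza. It rose in the libraries labelled guide 2 in DMSO (6.67 ± 0.583 TPM, log2 change 0.42, adjusted p = 8.8e-04), against their label, so every result below on those libraries is on libraries labelled so. KLK3, the androgen receptor target that encodes prostate-specific antigen, fell with Enza in control cells (from 833 ± 24.6 to 132 ± 5.33 TPM) and rose with Enza in guide 1 cells (from 931 ± 117 to 2029.7 ± 102 TPM, log2 change 1.13, adjusted p = 9.1e-09). In bulk RNA, fewer cells expressing a gene and less RNA per cell cannot be told apart.

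The 34 genes covered nearly the whole range of expression. In control cells in DMSO, GAPDH was at 4555 ± 153 TPM, TPI1 at 1209 ± 55.3 TPM and ALDOA at 1038 ± 75.3 TPM, while EPAS1, CA9 and SLC16A3 each averaged under 0.2 TPM. Several of the most abundant glycolytic genes have near-identical processed copies in the genome, and reads can be split between gene and copies in a way the counting decides. The summed TPM of such copies was 184% to 318% of the gene itself for PGK1, 165% to 257% for BNIP3, 122% to 144% for TPI1, 72.3% to 110.0% for HK2, 66.3% to 106% for LDHB, 61.5% to 90.5% for LDHA, 39.3% to 64.5% for ENO1 and 30.7% to 40.6% for GAPDH. The levels of these genes are therefore uncertain. Changes were also computed with each gene summed with its copies, and the calls that differ are given with the results.

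Promoters of these genes carry the core of the hypoxia response element unevenly. The letters ACGTG and GCGTG were searched on both strands (CACGT and CACGC on the other) in the 250 bases before each RefSeq start on GRCh38.p14, where a CACGTG holds ACGTG on each strand. RefSeq windows were found for 29 of the 34 genes, 57 windows in all. Either motif was present in 59.6% of these windows, in 55.6% of the 14566 windows of tested genes and in 43.2% of all 35116 windows of this length, so its share in the 34 genes was close to that in tested genes. ACGTG alone was in 38.6%, 22.6% and 18.5% of the same sets. In the 14 windows of the genes that fell with Enza under all 3 guides (below), 85.7% held either motif and 64.3% held ACGTG. ALDOA and LOX gave 3 of these windows each, all with ACGTG, and NDRG1 and VEGFA had none. Of the LOX windows 2 overlap and share their matches. These shares therefore count some genes and sites more than once. Stretches of 5 such windows outside annotated untranslated regions are shown, 5′ to 3′ on the strand of the gene, with the matches in capitals. HK2 and LDHA are shown because they fell with Enza in control and guide 1 cells and rose in guide 2 cells. BNIP3 is shown because it fell under all 3 guides, and LDHB because it rose where LDHA fell. PGK1 is shown because it fell in control and guide 1 cells, and it was not called in guide 2 cells. The 5 stretches are chr2:74834920-74835169 (plus strand, in an intron of HK2), chr11:18394313-18394387 (plus strand, just before LDHA), chrX:78103998-78104173 (plus strand, within the span of PGK1 and outside exons), chr10:131982014-131982173 (minus strand, just before BNIP3) and chr12:21657843-21658092 (minus strand, within the span of LDHB, 129 of its 250 bases in exons), by GENCODE 29 on GRCh38, which also gives the gene coordinates below.
HK2: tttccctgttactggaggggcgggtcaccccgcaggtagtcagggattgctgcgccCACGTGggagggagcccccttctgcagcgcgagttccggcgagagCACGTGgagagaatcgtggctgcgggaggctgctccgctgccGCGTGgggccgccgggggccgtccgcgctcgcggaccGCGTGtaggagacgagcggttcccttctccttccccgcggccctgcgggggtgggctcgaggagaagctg
LDHA: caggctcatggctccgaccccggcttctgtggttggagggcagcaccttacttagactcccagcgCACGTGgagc
PGK1: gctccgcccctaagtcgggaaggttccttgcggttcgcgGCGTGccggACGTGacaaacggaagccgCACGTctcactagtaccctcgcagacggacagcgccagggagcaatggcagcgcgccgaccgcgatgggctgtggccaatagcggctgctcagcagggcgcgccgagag
BNIP3: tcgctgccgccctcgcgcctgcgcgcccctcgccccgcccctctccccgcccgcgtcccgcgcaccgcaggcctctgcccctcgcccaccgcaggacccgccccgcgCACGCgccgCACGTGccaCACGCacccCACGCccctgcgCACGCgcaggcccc
LDHB: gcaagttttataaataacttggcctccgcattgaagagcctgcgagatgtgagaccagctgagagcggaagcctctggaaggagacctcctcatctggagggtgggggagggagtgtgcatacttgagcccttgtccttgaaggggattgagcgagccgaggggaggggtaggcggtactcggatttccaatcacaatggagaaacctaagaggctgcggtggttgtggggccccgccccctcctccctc
The HK2 stretch holds 2 copies of CACGTG and 2 of GCGTG, the LDHA and BNIP3 stretches each hold CACGTG, the PGK1 stretch holds ACGTG on both strands at separate places, and the LDHB stretch holds neither motif. Genes not shown went other ways. PFKP and PFKM, which rose with Enza under all 3 guides, had matches in some of their windows, and SLC2A1, which fell under all 3, had none in its window. A match describes the letters only, and the data here do not measure binding.

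The first question is how RNA of glycolysis and the hypoxia response differed after 6 weeks in Enza. Of the 8 tested hypoxia response genes beyond the factors, 7 fell with Enza in control cells and 8 with each OGDHL guide. Among these, ADM and LOX reached 1 TPM only in DMSO libraries and so passed the minimum for testing only where they were high; without them 5 of 6 fell in control cells and 6 of 6 with each OGDHL guide, with medians of -0.99, -0.90 and -1.01. Of the 16 glycolytic enzymes (hexose phosphate steps, lower glycolysis and lactate dehydrogenase), 9 fell and 3 rose in control cells, 8 fell and 4 rose in guide 1 cells, and 3 fell and 8 rose in guide 2 cells. The summed TPM of these 16 enzymes was 9082 ± 440.4 in DMSO and 6687 ± 388 in Enza in control cells, 7864 ± 1419 and 7330 ± 263 in guide 1 cells, and 6096 ± 48.0 and 6227 ± 45.2 in guide 2 cells (SD, n = 3). In control cells 21 of the 32 tested genes fell and 4 rose, against 24.8% and 23.1% of all tested genes (47.9% in either direction), and the median change was -0.46 against -0.0090 for all genes. In guide 1 cells 21 fell and 5 rose, against 23.3% and 19.5% of all genes (42.8% in either direction), with a median of -0.32. In guide 2 cells, against the libraries labelled DMSO that stood apart, 17 fell and 8 rose, against 49.7% and 23% of all genes (72.6% in either direction), with a median of -0.30. Without ADM, LOX and EPAS1, which reached 1 TPM in some groups only, 19 of 29 fell and 3 rose in control cells, 19 fell and 4 rose in guide 1 cells, and 14 fell and 8 rose in guide 2 cells. The median of all genes was shifted there, to -0.20, and with median-of-ratios scaling (0.056 for all genes) the count was 14 lower and 13 higher. With the mitochondrially encoded rows kept, a scaling that moved the median of all genes to 0.23 in guide 1 cells, 7 genes fell there. This scaling ended the guide 1 calls of ALDOC, BNIP3L, HK2, LDHA, PFKFB4, PGK1, SLC2A1 and VEGFA and turned 6 others to the other sign. In control cells it ended the calls of ALDOA, ARNT, GAPDH, PFKM, PFKP, PGAM1, PKM and SLC16A1, and in guide 2 cells those of ALDOA, ENO1, HK2, LDHA and TPI1. With limma on only the libraries of a comparison, 7 guide 1 calls ended. They were ALDOA (adjusted p = 0.26), ALDOC (0.18), ARNT (0.053), GPI (0.11), PFKL (0.26), PFKM (0.18) and SLC2A1 (0.098).

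In all, 11 genes fell with Enza in all 3 of these comparisons, which use separate libraries but 1 shared estimate of the spread: SLC2A1, PFKFB4, ALDOA, HIF1A, VEGFA, NDRG1, BNIP3, ANKRD37, ADM, BHLHE40 and LOX. That is 11 of 32, against 9.87% of all tested genes. Without ADM and LOX it is 9. Of fits that each left out 1 library, 17 of 18 ended the guide 1 call of ALDOA and 13 of 18 its guide 2 call. ALDOA also no longer fell in all 3 with no minimum level, a pseudocount of 0.1 or 5, the replicate block or only the libraries of a comparison. Of the 11, HIF1A, NDRG1, BNIP3, ANKRD37, ADM, BHLHE40 and LOX fell in all 3 also with median-of-ratios scaling and with the mitochondrially encoded rows kept. PFKM, PFKP and LDHB rose in all 3 comparisons, against 5.94% of genes. The guide 1 call of PFKM was lost with limma on only the libraries of that comparison (adjusted p = 0.18).

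**Figure D1:**
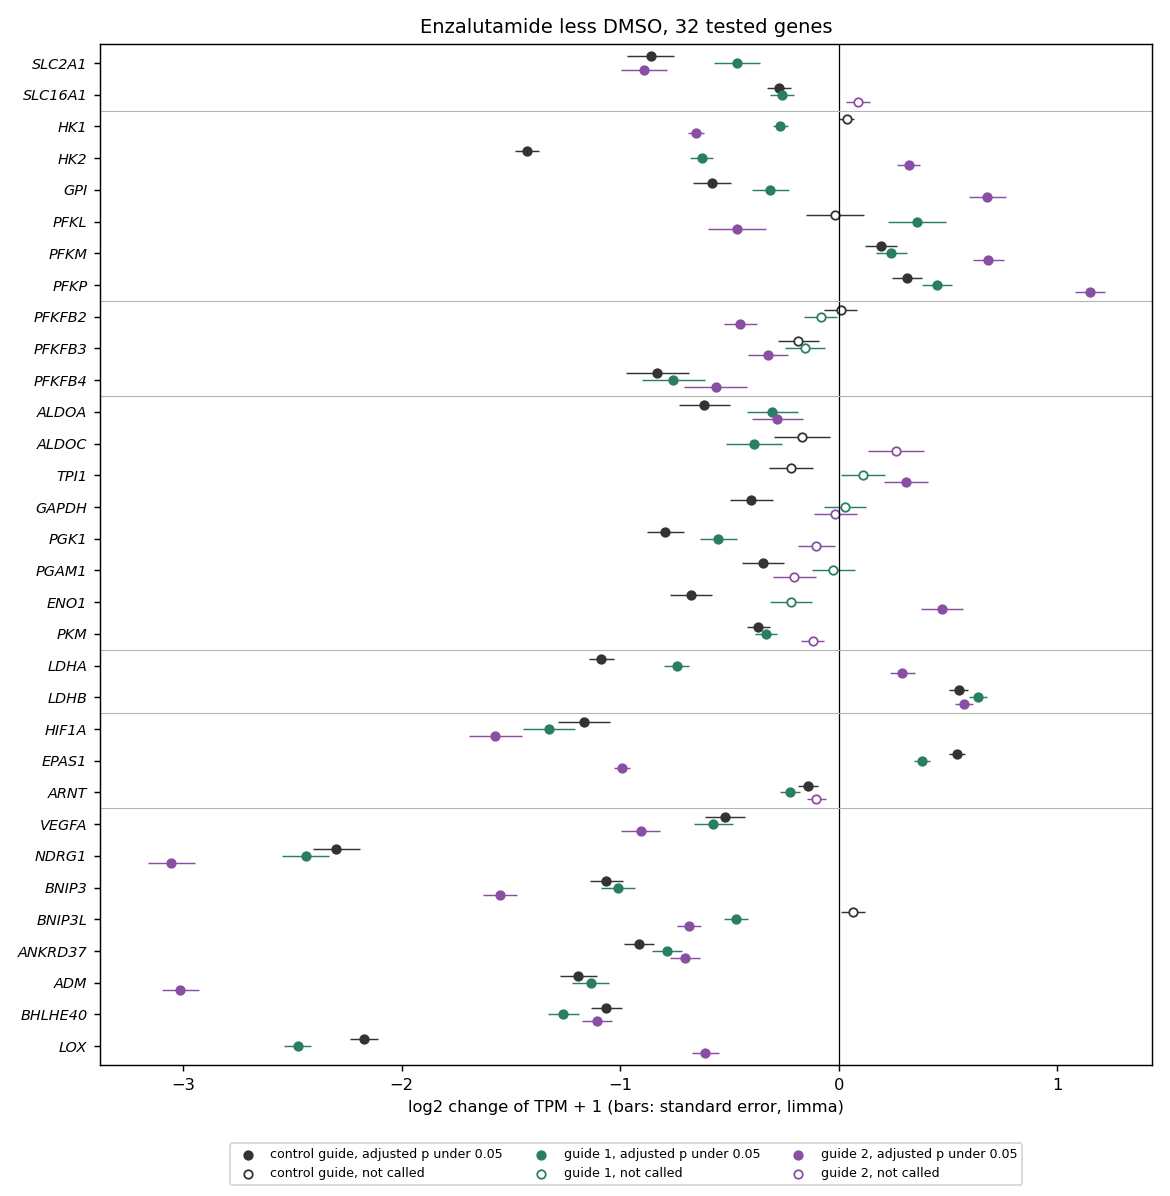
Change with Enza in each of 32 genes, grouped by role from transport (top) to hypoxia response (bottom). The x axis is the difference of mean log2(TPM + 1), Enza less DMSO, bars are the limma standard error, filled points have an adjusted p under 0.05, and colours mark the guide. NDRG1, ADM and BNIP3 lie left of 0 with all guides, and HK2 lies at -1.43, -0.63 and 0.32.

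SLC2A1 (GLUT1), the main glucose carrier of most dividing cells, was at 15.5, 16.5 and 17.4 TPM in control cells in DMSO and 8.81, 8.60 and 8.43 TPM in Enza. With guide 1, SLC2A1 was at 11.1, 14.9 and 17.7 TPM in DMSO and 10.6, 9.65 and 10.1 TPM in Enza. With guide 2, SLC2A1 was at 17.95, 19.1 and 18.6 TPM in the libraries labelled DMSO and 9.27, 9.45 and 9.92 TPM in Enza. Every Enza library lay below every DMSO library of its guide, and guide 1 DMSO replicate 1 lay close to the Enza levels. SLC2A1 fell with Enza in control cells (-0.86, SE 0.11, adjusted p = 9.2e-06), guide 1 cells (-0.47, adjusted p = 0.0028) and guide 2 cells (-0.89, adjusted p = 2.5e-06). The guide 1 call was lost when only the 6 libraries of that comparison were fitted (adjusted p = 0.098).

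SLC16A1 (MCT1), which carries lactate and pyruvate across the plasma membrane, was at 24.5, 26.4 and 24.6 TPM in control DMSO and 20.9, 19.7 and 21.4 TPM in control Enza. With guide 1, SLC16A1 was at 28.4, 27.3 and 27.3 TPM in DMSO and 23.5, 21.3 and 24.1 TPM in Enza. With guide 2, SLC16A1 was at 16.6, 16.7 and 18.4 TPM in the libraries labelled DMSO and 18.1, 17.7 and 19.2 TPM in Enza. The lowest libraries were those labelled guide 2 in DMSO, and they overlapped with guide 2 in Enza. SLC16A1 fell with Enza in control cells (-0.27, adjusted p = 8.5e-04) and guide 1 cells (-0.26, adjusted p = 0.0015), although the guide 1 value was 0.065 with the mitochondrially encoded rows kept. In guide 2 cells its change was 0.089, adjusted p = 0.16. The related lactate exporter SLC16A3 (MCT4) was near the lower end of the table in all 18 libraries, from 0.0519 to 0.267 TPM, with its highest levels of 0.258, 0.267 and 0.250 TPM in the libraries labelled guide 2 in DMSO. It was not tested.

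HK2, the hexokinase that tumours often raise and that binds the outer mitochondrial membrane (chromosome 2, 74833981 to 74893359, plus strand), was at 16.3, 16.6 and 17.9 TPM in control cells in DMSO and 5.88, 5.34 and 5.81 TPM in Enza. With guide 1, HK2 was at 16.4, 18.1 and 18.8 TPM in DMSO and 11.1, 10.7 and 11.6 TPM in Enza. With guide 2, HK2 was at 4.48, 4.82 and 4.86 TPM in the libraries labelled DMSO and 6.18, 6.05 and 6.19 TPM in Enza. The control and guide 1 DMSO libraries were highest and overlapped, guide 1 in Enza lay between, and the other 3 groups lay between 4.48 and 6.19 TPM without overlap, the libraries labelled guide 2 in DMSO lowest. HK2 fell with Enza 2.98-fold in control cells (log2 change -1.43, SE 0.054, adjusted p = 1.3e-11) and 1.59-fold in guide 1 cells (-0.63, adjusted p = 3.1e-07), and rose in guide 2 cells (0.32, adjusted p = 7.8e-05). With mitochondrially encoded rows kept, neither the guide 1 fall (-0.28, adjusted p = 0.13) nor the guide 2 rise (0.16, adjusted p = 0.36) passed. The fall was smaller with guide 1 than with the control guide by limma's interaction test (difference 0.80, SE 0.076, adjusted p = 3.4e-06). In Enza HK2 was higher with guide 1 than in control cells (log2 change 0.86, adjusted p = 1.8e-08).

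HK1, the hexokinase of most resting tissues, was at 5.05, 5.18 and 5.12 TPM in control DMSO and 5.53, 5.04 and 5.26 TPM in control Enza. With guide 1, HK1 was at 5.19, 5.44 and 5.28 TPM in DMSO and 4.32, 4.15 and 4.26 TPM in Enza. With guide 2, HK1 was at 7.97, 8.40 and 8.53 TPM in the libraries labelled DMSO and 4.89, 4.95 and 4.90 TPM in Enza. It was highest in the libraries labelled guide 2 in DMSO and lowest with guide 1 in Enza, where no library overlapped another group. HK1 fell with Enza in guide 1 (-0.27, adjusted p = 2.8e-05) and guide 2 cells (-0.65, adjusted p = 2.9e-10), with a guide 1 value of 0.0075 when mitochondrially encoded rows were kept, and its change in control cells was 0.037, adjusted p = 0.43. HK2 made up 76.8 ± 0.886% of the summed TPM of both genes in control DMSO and 51.8 ± 0.569% in control Enza (SD, n = 3). With guide 1 the share was 76.97 ± 1.05% in DMSO and 72.4 ± 0.679% in Enza, and with guide 2 it was 36.3 ± 0.256% and 55.5 ± 0.466%.

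**Figure D2:**
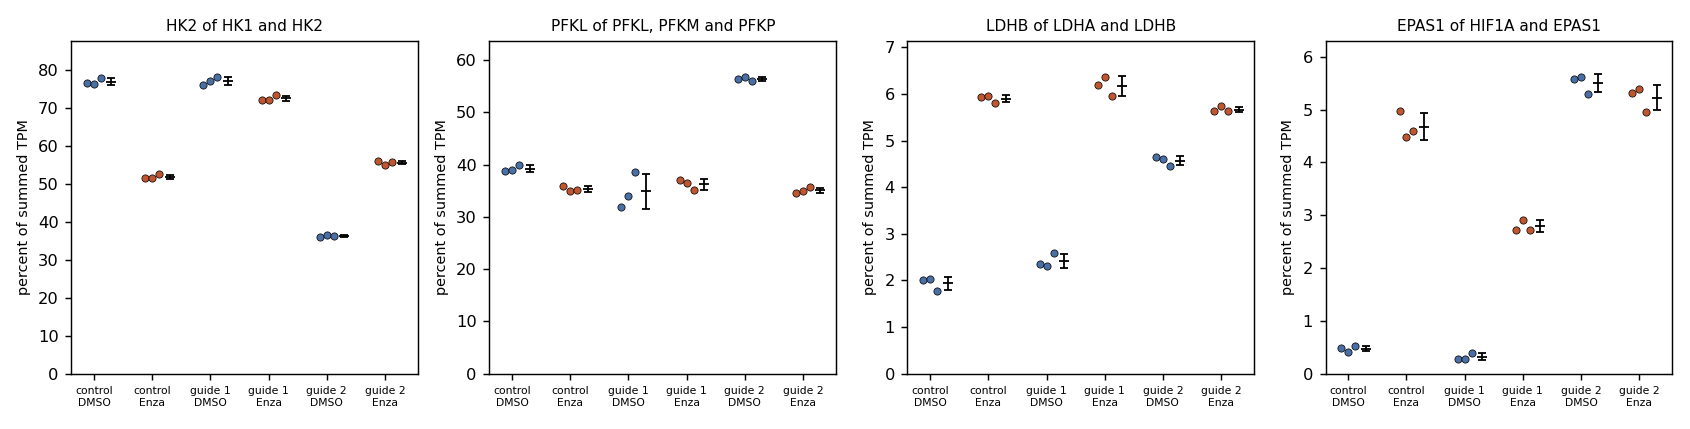
Share of 1 gene in the summed TPM of its paralogs, in percent, in every library (points, DMSO blue and Enza orange) with the mean and SD of each group of 3. HK2 makes up 76.8% of hexokinase TPM in control DMSO, 51.8% in control Enza, 72.4% with guide 1 in Enza and 36.3% in the libraries labelled guide 2 in DMSO.

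GPI, which turns glucose 6-phosphate into fructose 6-phosphate, was at 108, 113 and 127 TPM in control DMSO and 82.2, 75.5 and 73.5 TPM in control Enza. With guide 1, GPI was at 91.1, 103 and 123 TPM in DMSO and 87.6, 82.99 and 82.6 TPM in Enza. With guide 2, GPI was at 48.6, 49.3 and 50.8 TPM in the libraries labelled DMSO and 79.02, 79.9 and 81.2 TPM in Enza. The 3 Enza groups lay close together, from 73.5 to 87.6 TPM, while the DMSO groups ranged from 48.6 to 127 TPM. GPI fell with Enza in control cells (-0.58, adjusted p = 5.1e-05) and guide 1 cells (-0.31, adjusted p = 0.0088, but 0.027 with mitochondrially encoded rows kept), and rose in guide 2 cells (0.68, adjusted p = 4.3e-06).

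The 3 phosphofructokinase genes, which encode liver (PFKL), muscle (PFKM) and platelet (PFKP) subunits of the enzyme that commits sugar to glycolysis, moved apart. PFKP was at 5.03, 5.11 and 5.84 TPM in control DMSO and 7.36, 6.72 and 6.50 TPM in control Enza. With guide 1, PFKP was at 4.66, 5.33 and 5.90 TPM in DMSO and 7.71, 7.59 and 7.43 TPM in Enza. With guide 2, PFKP was at 2.20, 2.34 and 2.52 TPM in the libraries labelled DMSO and 6.40, 6.41 and 6.51 TPM in Enza. Enza libraries were above the DMSO libraries of the same guide without overlap, and the libraries labelled guide 2 in DMSO were lowest. PFKP rose with Enza in control (0.31, adjusted p = 0.0014), guide 1 (0.45, adjusted p = 9.6e-05) and guide 2 cells (1.15, adjusted p = 8.0e-10).

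PFKM was at 35.8, 37.1 and 35.8 TPM in control DMSO and 42.4, 40.8 and 41.5 TPM in control Enza. With guide 1, PFKM was at 27.8, 32.6 and 37.4 TPM in DMSO and 39.1, 38.1 and 38.1 TPM in Enza. With guide 2, PFKM was at 26.7, 28.5 and 27.1 TPM in the libraries labelled DMSO and 44.2, 45.01 and 44.8 TPM in Enza. All Enza libraries lay above the DMSO libraries of their guide, by the largest margin with guide 2. PFKM rose with Enza in control (0.19, adjusted p = 0.037), guide 1 (0.24, adjusted p = 0.014) and guide 2 cells (0.69, adjusted p = 5.6e-07). The control call was lost when any 1 of the 6 libraries of that comparison was left out, and the guide 1 change was 0.038 with guide 1 DMSO replicate 3 as the only library of its group.

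PFKL was at 25.9, 26.8 and 27.7 TPM in control DMSO and 27.9, 25.5 and 26.00 TPM in control Enza, which overlapped (log2 change -0.019, adjusted p = 0.93). With guide 1, PFKL was at 15.2, 19.6 and 27.3 TPM in DMSO and 27.6, 26.2 and 24.6 TPM in Enza. With guide 2, PFKL was at 37.2, 40.5 and 37.8 TPM in the libraries labelled DMSO and 26.9, 27.5 and 28.5 TPM in Enza. The libraries labelled guide 2 in DMSO were above all others, and guide 1 DMSO replicates 1 and 2 were below all others. PFKL rose with Enza in guide 1 cells (0.36, adjusted p = 0.041) although the groups overlapped through DMSO replicate 3, and its change was -0.060 with DMSO replicate 3 alone, and fell in guide 2 cells (-0.46, adjusted p = 0.0057), a call lost with median-of-ratios scaling (-0.17, adjusted p = 0.19). The guide 1 call ended in 13 of 18 fits that each left out 1 library. PFKL made up 39.2 ± 0.632% of the TPM of the 3 genes in control DMSO and 35.3 ± 0.511% in control Enza, and PFKP made up 7.79 ± 0.555% and 9.15 ± 0.352%.

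PFKFB2, PFKFB3 and PFKFB4 encode the bifunctional enzymes that make and break fructose 2,6-bisphosphate, the activator of phosphofructokinase. PFKFB4 fell with Enza from 5.38 ± 0.904 to 2.57 ± 0.0465 TPM in control cells (-0.83, adjusted p = 2.4e-04), and also with guide 1 (-0.76, adjusted p = 7.2e-04) and guide 2 (-0.56, adjusted p = 0.0028). PFKFB3, at 2.97 ± 0.516 TPM in control DMSO, fell in guide 2 cells (-0.32, adjusted p = 0.0057), a call lost with median-of-ratios scaling (-0.11, adjusted p = 0.27). In control and guide 1 cells PFKFB3 did not pass, but in guide 1 cells it did with DMSO replicate 3 alone (-0.38, adjusted p = 0.0098). PFKFB2, an androgen-induced member of this family in prostate cells, was at 13.1, 14.4 and 12.5 TPM in control DMSO and 13.7, 12.8 and 13.8 TPM in control Enza. With guide 1, PFKFB2 was at 12.1, 12.8 and 15.1 TPM in DMSO and 13.3, 11.9 and 12.4 TPM in Enza. With guide 2, PFKFB2 was at 21.6, 25.2 and 23.1 TPM in the libraries labelled DMSO and 16.8, 16.9 and 16.5 TPM in Enza. Both guide 2 groups lay above all libraries of the other 4 groups. PFKFB2 fell with Enza in guide 2 cells (-0.45, adjusted p = 7.3e-05), and did not pass in control (0.010, adjusted p = 0.93) or guide 1 cells (-0.082, adjusted p = 0.40), the latter passing with DMSO replicate 3 alone (-0.25, adjusted p = 0.033).

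Lower glycolysis runs from the aldolases ALDOA and ALDOC through TPI1, GAPDH, PGK1, PGAM1 and ENO1 to pyruvate kinase (PKM). In control cells 6 of these 8 genes fell with Enza and none rose, against 24.8% and 23.1% of all tested genes. In guide 1 cells 4 of 8 fell and none rose, against 23.3% and 19.5%. In guide 2 cells 1 fell and 2 rose, against 49.7% and 23%. With mitochondrially encoded rows kept, the control calls of ALDOA, GAPDH, PGAM1 and PKM were lost, as were all those in guide 1 and guide 2 cells. ENO1, which makes phosphoenolpyruvate, was at 516, 522 and 577 TPM in control DMSO and 352, 329.8 and 327 TPM in control Enza. With guide 1, ENO1 was at 376, 433 and 554 TPM in DMSO and 394, 380.2 and 383 TPM in Enza. With guide 2, ENO1 was at 220.3, 224 and 218 TPM in the libraries labelled DMSO and 302, 307 and 313 TPM in Enza. Guide 1 DMSO replicate 1 lay below the guide 1 Enza libraries, replicate 3 within the control DMSO range and replicate 2 between them. ENO1 fell with Enza in control cells (-0.68, adjusted p = 3.6e-05) and rose in guide 2 cells (0.47, adjusted p = 4.5e-04). Its change in guide 1 cells (-0.22, adjusted p = 0.084) did not pass, but did when ENO1 was summed with its copies (-0.28, adjusted p = 0.0026) and with guide 1 DMSO replicate 3 alone (-0.52, adjusted p = 1.7e-05).

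GAPDH, the oxidative step of the pathway, was at 4465, 4467 and 4731 TPM in control DMSO and 3707, 3378 and 3287 TPM in control Enza. With guide 1, GAPDH was at 3099, 3754 and 4605 TPM in DMSO and 4030.4, 3783 and 3734 TPM in Enza. With guide 2, GAPDH was at 3237, 3177 and 3281 TPM in the libraries labelled DMSO and 3196, 3185 and 3208 TPM in Enza. Control DMSO libraries and guide 1 DMSO replicate 3 were highest. GAPDH fell with Enza in control cells (-0.40, adjusted p = 0.0036) and passed the test in neither guide 1 (0.029, adjusted p = 0.83) nor guide 2 cells (-0.016, adjusted p = 0.89). These directions depended on the libraries and the scaling: the guide 1 change was -0.26 (adjusted p = 0.0044) with DMSO replicate 3 alone, and the guide 2 change was 0.28 (adjusted p = 0.0076) with median-of-ratios scaling.

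**Figure D3:**
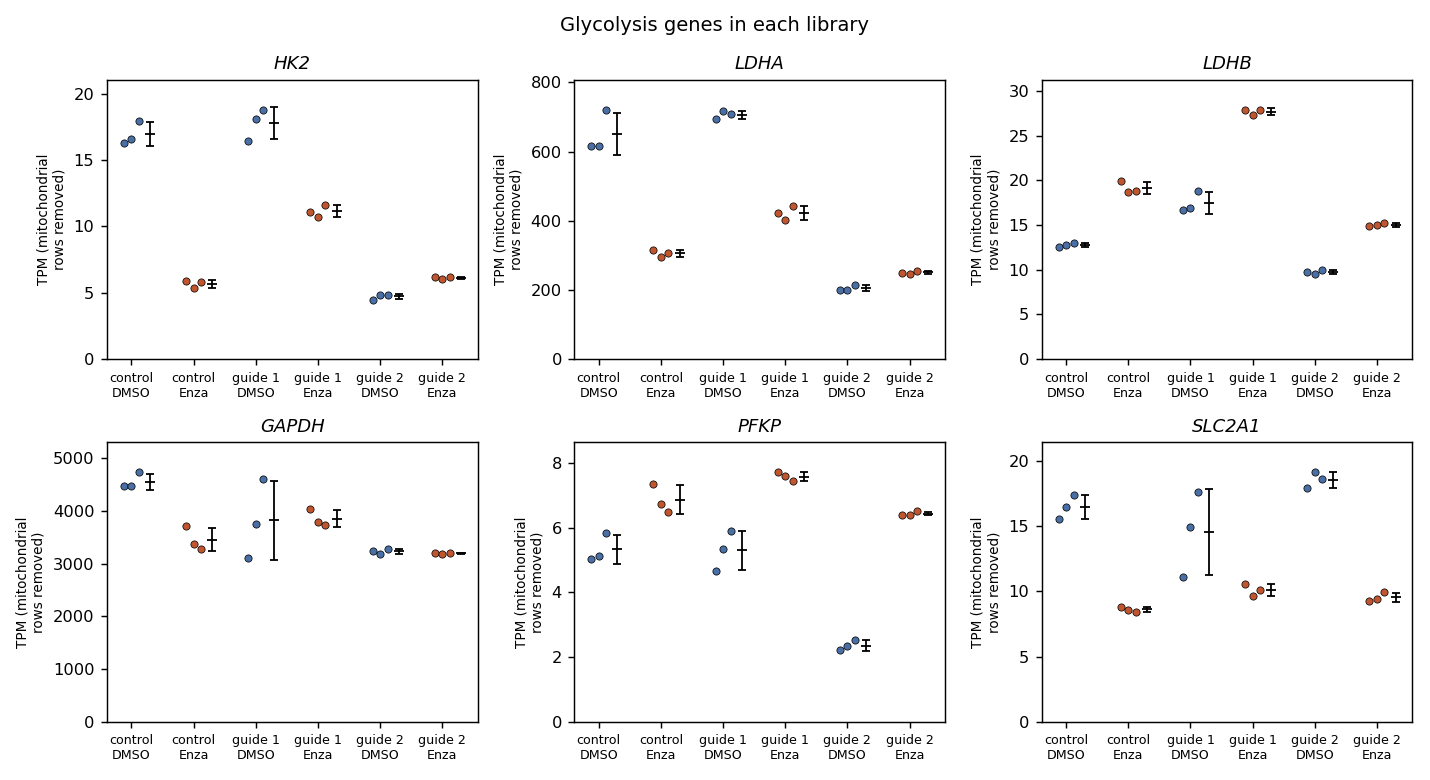
TPM of 6 glycolysis genes in each library (points, DMSO blue and Enza orange, linear axes from 0) with the mean and SD of each group of 3. HK2 and LDHA are low in the libraries labelled guide 2 in DMSO, LDHB is above DMSO in every Enza group, and guide 1 DMSO libraries spread widely for GAPDH and SLC2A1.

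In control cells 4 further genes of lower glycolysis fell with Enza. PGK1 fell from 20.3 ± 2.46 to 11.3 ± 0.373 TPM (-0.79, adjusted p = 2.0e-06), ALDOA from 1038 ± 75.3 to 677 ± 47.5 TPM (-0.61, adjusted p = 5.2e-04), PKM from 266 ± 11.6 to 206 ± 9.97 TPM (-0.37, adjusted p = 3.5e-05) and PGAM1 from 466 ± 19.96 to 366 ± 19.8 TPM (-0.35, adjusted p = 0.0090). TPI1, which interconverts the triose phosphates, did not pass by itself (-0.22, adjusted p = 0.088) and fell with median-of-ratios scaling (-0.24, adjusted p = 0.026) and when summed with its copies (-0.25, adjusted p = 0.020). In guide 1 cells PGK1 (-0.55, adjusted p = 1.2e-04), PKM (-0.33, adjusted p = 1.4e-04), ALDOC (-0.39, adjusted p = 0.026) and, at the threshold, ALDOA (-0.30, adjusted p = 0.0498) fell. In guide 2 cells TPI1 (0.31, adjusted p = 0.012) rose beside ENO1, and ALDOA (-0.28, adjusted p = 0.043) fell, with a value of 0.018 under median-of-ratios scaling. The guide 1 call of PGK1 was lost with its copies added (-0.31, adjusted p = 0.11), and the guide 1 changes of PKM and ALDOA had values of 0.012 and 0.041 with mitochondrially encoded rows kept. ALDOC, the aldolase abundant in brain, was at 110.4, 109 and 140.1 TPM in control DMSO and 112, 104 and 102 TPM in control Enza. With guide 1, ALDOC was at 82.8, 101 and 135 TPM in DMSO and 81.7, 78.7 and 78.2 TPM in Enza. With guide 2, ALDOC was at 82.8, 80.1 and 79.8 TPM in the libraries labelled DMSO and 96.7, 96.4 and 98.5 TPM in Enza. Its lowest libraries were guide 1 in Enza and those labelled guide 2 in DMSO, and guide 1 DMSO spanned most of the range.

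LDHA, the lactate-forming subunit of lactate dehydrogenase (chromosome 11, 18394388 to 18408425, plus strand), was at 616, 615 and 721 TPM in control DMSO and 315, 296 and 306 TPM in control Enza. With guide 1, LDHA was at 693, 717 and 708 TPM in DMSO and 423, 401 and 441 TPM in Enza. With guide 2, LDHA was at 201, 198 and 214 TPM in the libraries labelled DMSO and 249, 246 and 255 TPM in Enza. Guide 1 in Enza stood between the DMSO libraries of control and guide 1 cells and the remaining groups, and no Enza group overlapped another. LDHA fell 2.13-fold with Enza in control cells (log2 change -1.09, SE 0.057, adjusted p = 6.6e-10) and 1.67-fold in guide 1 cells (-0.74, adjusted p = 9.3e-08), and rose in guide 2 cells (0.29, adjusted p = 3.1e-04). With mitochondrially encoded rows kept, neither the guide 1 fall (-0.39, adjusted p = 0.067) nor the guide 2 rise (0.13, adjusted p = 0.49) passed. Unlike GAPDH, LDHA varied little over the guide 1 DMSO replicates, from 693 to 717 TPM.

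LDHB, the subunit that favours the reverse step from lactate to pyruvate (chromosome 12, 21635342 to 21757857, minus strand), was at 12.6, 12.8 and 12.96 TPM in control DMSO and 19.9, 18.7 and 18.9 TPM in control Enza. With guide 1, LDHB was at 16.6, 16.9 and 18.9 TPM in DMSO and 27.9, 27.3 and 27.9 TPM in Enza. With guide 2, LDHB was at 9.78, 9.56 and 9.99 TPM in the libraries labelled DMSO and 14.9, 14.98 and 15.2 TPM in Enza. Each Enza group lay above its DMSO group without overlap, and guide 1 lay above control cells in both media. LDHB rose with Enza in control (0.55, SE 0.042, adjusted p = 4.9e-08), guide 1 (0.64, adjusted p = 1.6e-08) and guide 2 cells (0.57, adjusted p = 9.5e-09), by amounts that the interaction test did not separate (differences of 0.091, adjusted p = 0.27 for guide 1 and 0.024, adjusted p = 0.74 for guide 2). With median-of-ratios scaling the guide 2 difference passed (0.31, adjusted p = 8.8e-05). The share of LDHB in the summed TPM of both subunits went from 1.93 ± 0.147% in DMSO to 5.90 ± 0.0749% in Enza in control cells, and from 2.41 ± 0.158% to 6.17 ± 0.209% in guide 1 cells. In guide 2 cells it was 4.57 ± 0.0971% in the libraries labelled DMSO and 5.67 ± 0.0623% in Enza, so LDHA remained the more abundant subunit RNA throughout.

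Among the hypoxia-inducible factors, HIF1A (chromosome 14, 61695513 to 61748259, plus strand) fell with Enza and EPAS1 rose in control and guide 1 cells. HIF1A was at 31.9, 34.2 and 30.1 TPM in control DMSO and 14.2, 13.1 and 13.96 TPM in control Enza. With guide 1, HIF1A was at 53.7, 46.5 and 33.5 TPM in DMSO and 17.4, 15.8 and 17.4 TPM in Enza. With guide 2, HIF1A was at 39.8, 43.2 and 46.5 TPM in the libraries labelled DMSO and 14.02, 13.7 and 13.8 TPM in Enza. All 9 Enza libraries were below all 9 DMSO libraries, and among guide 1 DMSO libraries replicate 1 was the highest of all 18 and replicate 3 lay within the control range. HIF1A fell 2.33-fold with Enza in control cells (log2 change -1.16, SE 0.12, adjusted p = 1.4e-06), 2.64-fold in guide 1 cells (-1.33, adjusted p = 5.8e-07) and 3.12-fold in guide 2 cells (-1.57, adjusted p = 1.7e-08).

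EPAS1, which encodes HIF-2 alpha, was near the lower end of the table, at 0.155, 0.142 and 0.156 TPM in control DMSO and 0.744, 0.613 and 0.671 TPM in control Enza. With guide 1, EPAS1 was at 0.151, 0.131 and 0.133 TPM in DMSO and 0.487, 0.474 and 0.489 TPM in Enza. With guide 2, EPAS1 was at 2.35, 2.57 and 2.60 TPM in the libraries labelled DMSO and 0.788, 0.780 and 0.721 TPM in Enza. It reached 1 TPM only in the libraries labelled guide 2 in DMSO, and passed the minimum for testing only through them, so a difference there was fixed by the filter. In the fit with no minimum level EPAS1 had changes with Enza of 0.54 (adjusted p = 4.2e-09) in control cells and 0.38 (adjusted p = 3.2e-07) in guide 1 cells. Its DMSO and Enza libraries did not overlap there, and all of them lay under 1 TPM. Its share of the summed TPM of HIF1A and EPAS1 was 0.471 ± 0.0519% in control DMSO and 4.68 ± 0.253% in control Enza.

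ARNT, the partner of both alpha subunits, was at 11.1, 11.9 and 11.1 TPM in control DMSO and 10.4, 9.81 and 10.4 TPM in control Enza. With guide 1, ARNT was at 12.3, 12.5 and 11.5 TPM in DMSO and 10.7, 9.85 and 10.2 TPM in Enza. With guide 2, ARNT was at 11.5, 12.6 and 12.5 TPM in the libraries labelled DMSO and 11.4, 11.2 and 11.2 TPM in Enza. All 18 libraries lay between 9.81 and 12.6 TPM, a narrower range than for either alpha subunit. Its changes with Enza were small: -0.14, adjusted p = 0.020 in control cells, -0.22, adjusted p = 0.0012 in guide 1 cells and -0.10, adjusted p = 0.056 in guide 2 cells, the guide 1 value being 0.080 with mitochondrially encoded rows kept and the guide 2 value 0.17 with median-of-ratios scaling.

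NDRG1, a stress-response gene induced by both hypoxia and androgen, fell furthest of the 32 genes on the log2(TPM + 1) scale in control and guide 2 cells. As ratios of mean TPM, LOX in control cells (4.22 to 0.159 TPM) and ADM in guide 2 cells (9.45 to 0.294 TPM) fell further. NDRG1 was at 24.02, 24.4 and 32.1 TPM in control DMSO and 4.89, 4.38 and 4.57 TPM in control Enza. With guide 1, NDRG1 was at 21.4, 25.2 and 29.9 TPM in DMSO and 3.83, 3.86 and 3.84 TPM in Enza. With guide 2, NDRG1 was at 49.96, 53.6 and 51.5 TPM in the libraries labelled DMSO and 5.09, 5.49 and 5.46 TPM in Enza. All Enza libraries were under 6 TPM and all DMSO libraries above 20 TPM, with the libraries labelled guide 2 highest. NDRG1 fell 5.82-fold with Enza in control cells (log2 change -2.30, SE 0.11, adjusted p = 1.7e-10), 6.63-fold in guide 1 cells (-2.44, adjusted p = 1.7e-10) and 9.67-fold in guide 2 cells (-3.05, adjusted p = 1.8e-12).

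BNIP3, a mitochondrial receptor for mitophagy that hypoxia induces, was at 72.5, 75.1 and 92.5 TPM in control DMSO and 38.6, 36.4 and 37.7 TPM in control Enza. With guide 1, BNIP3 was at 99.8, 92.1 and 95.9 TPM in DMSO and 47.1, 43.97 and 50.5 TPM in Enza. With guide 2, BNIP3 was at 109, 116 and 119 TPM in the libraries labelled DMSO and 37.6, 39.8 and 38.3 TPM in Enza. No Enza library reached any DMSO library. BNIP3 fell with Enza in control (-1.06, adjusted p = 2.6e-08), guide 1 (-1.01, adjusted p = 8.2e-08) and guide 2 cells (-1.55, adjusted p = 1.0e-10). Its relative BNIP3L (NIX), also a mitophagy receptor, was at 8.16, 8.30 and 8.54 TPM in control DMSO and 8.95, 8.52 and 8.88 TPM in control Enza, which overlapped (0.067, adjusted p = 0.34). With guide 1, BNIP3L was at 10.6, 10.6 and 9.59 TPM in DMSO and 7.40, 6.52 and 7.48 TPM in Enza. With guide 2, BNIP3L was at 15.01, 14.9 and 16.7 TPM in the libraries labelled DMSO and 9.09, 9.16 and 9.58 TPM in Enza. Guide 1 in Enza was the lowest group and the libraries labelled guide 2 in DMSO the highest. BNIP3L fell with Enza in guide 1 (-0.47, adjusted p = 8.3e-06) and guide 2 cells (-0.69, adjusted p = 2.8e-08), and the guide 1 response differed from that of control cells (difference -0.54, adjusted p = 1.8e-04). With mitochondrially encoded rows kept, the guide 1 fall (-0.14, adjusted p = 0.31) and its difference from control cells (-0.16, adjusted p = 0.45) did not pass.

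**Figure D4:**
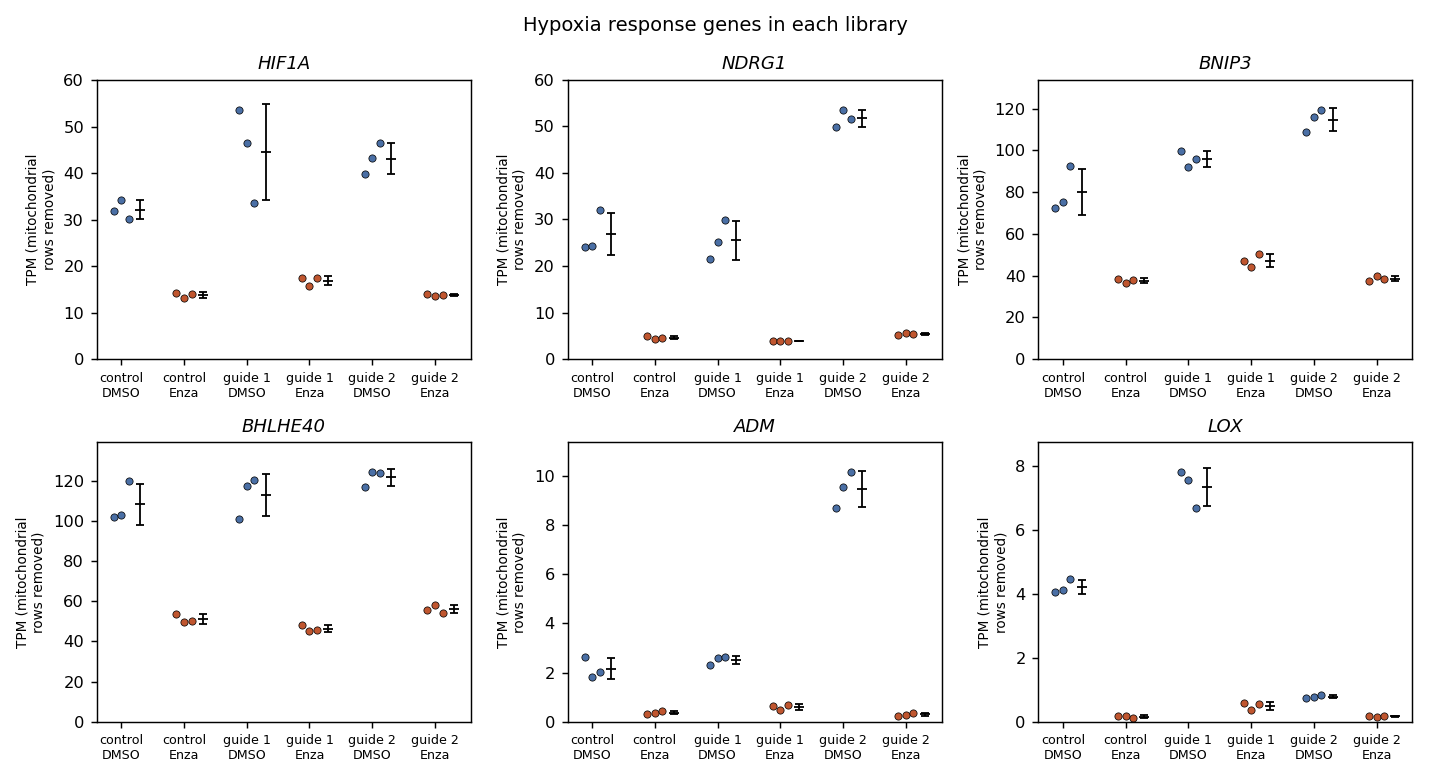
TPM of 6 hypoxia response genes in each library (points, DMSO blue and Enza orange, linear axes from 0) with the mean and SD of each group of 3. Enza libraries lie below the DMSO libraries of the same guide for all 6 genes, ADM and NDRG1 are highest in the libraries labelled guide 2 in DMSO, and LOX is highest with guide 1 in DMSO.

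LOX, the collagen cross-linking enzyme, was at 4.07, 4.13 and 4.47 TPM in control DMSO and 0.177, 0.189 and 0.113 TPM in control Enza. With guide 1, LOX was at 7.80, 7.55 and 6.69 TPM in DMSO and 0.598, 0.361 and 0.548 TPM in Enza. With guide 2, LOX was at 0.744, 0.766 and 0.831 TPM in the libraries labelled DMSO and 0.178, 0.135 and 0.187 TPM in Enza. Every Enza library was under 1 TPM, guide 1 exceeded control cells in both media, and the libraries labelled guide 2 were also under 1 TPM. LOX reached 1 TPM only in control and guide 1 DMSO, so its test is given from the fit with no minimum level, over all genes. There LOX fell with Enza in control (-2.17, adjusted p = 3.5e-12), guide 1 (-2.48, adjusted p = 2.1e-12) and guide 2 cells (-0.61, adjusted p = 8.9e-07).

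ADM, the vasodilator peptide adrenomedullin, was at 2.63, 1.80 and 2.03 TPM in control DMSO and 0.331, 0.359 and 0.429 TPM in control Enza. With guide 1, ADM was at 2.32, 2.57 and 2.64 TPM in DMSO and 0.633, 0.480 and 0.690 TPM in Enza. With guide 2, ADM was at 8.68, 9.54 and 10.1 TPM in the libraries labelled DMSO and 0.252, 0.282 and 0.349 TPM in Enza. All 9 Enza libraries were under 0.7 TPM, and the libraries labelled guide 2 in DMSO were above all others. ADM reached 1 TPM only in DMSO libraries. In the fit with no minimum level ADM fell with Enza in control (-1.19, adjusted p = 6.7e-08), guide 1 (-1.13, adjusted p = 2.1e-07) and guide 2 cells (-3.01, adjusted p = 8.4e-13).

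BHLHE40, a transcriptional repressor that hypoxia induces, was at 102, 103 and 120.0 TPM in control DMSO and 53.9, 49.7 and 49.9 TPM in control Enza. With guide 1, BHLHE40 was at 101, 117 and 120.1 TPM in DMSO and 48.2, 45.3 and 45.8 TPM in Enza. With guide 2, BHLHE40 was at 117, 124 and 124 TPM in the libraries labelled DMSO and 55.9, 58.1 and 54.1 TPM in Enza. DMSO and Enza libraries formed separate ranges whatever the guide. BHLHE40 fell with Enza in control (-1.06, adjusted p = 1.0e-08), guide 1 (-1.26, adjusted p = 2.7e-09) and guide 2 cells (-1.11, adjusted p = 2.0e-09). The interaction differences did not pass for guide 1 (-0.20, adjusted p = 0.16) or guide 2 (-0.043, adjusted p = 0.73), the latter 0.28 with median-of-ratios scaling.

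VEGFA, the angiogenic growth factor, was at 48.2, 53.4 and 59.3 TPM in control DMSO and 34.2, 38.5 and 38.4 TPM in control Enza. With guide 1, VEGFA was at 54.3, 63.6 and 68.1 TPM in DMSO and 41.7, 39.4 and 42.4 TPM in Enza. With guide 2, VEGFA was at 62.1, 73.9 and 71.7 TPM in the libraries labelled DMSO and 35.3, 37.4 and 36.4 TPM in Enza. No Enza library overlapped the DMSO libraries of its guide. VEGFA fell with Enza in control (-0.52, adjusted p = 2.2e-04), guide 1 (-0.57, adjusted p = 1.4e-04) and guide 2 cells (-0.91, adjusted p = 3.3e-07). ANKRD37, an ankyrin-repeat gene induced by HIF-1, fell from 7.71 ± 0.508 to 3.62 ± 0.204 TPM in control cells (-0.91, adjusted p = 3.6e-08), and also with guide 1 (-0.79, adjusted p = 3.4e-07) and guide 2 (-0.70, adjusted p = 2.3e-07). CA9, a carbonic anhydrase often used as a marker of HIF-1 activity, was at 0.0833, 0.0858 and 0.260 TPM in control DMSO and 0.0125, 0.0385 and 0.0551 TPM in control Enza. With guide 1, CA9 was at 0.225, 0.360 and 0.449 TPM in DMSO and 0.0374, 0.0587 and 0 TPM in Enza. With guide 2, CA9 was at 3.0e-17, 0.0139 and 0 TPM in the libraries labelled DMSO and 0.0165, 0.0113 and 0.0384 TPM in Enza. At under 0.5 TPM in all 18 libraries, CA9 was not tested.

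The second question is what the OGDHL guides changed in DMSO, and guide 1 gave few calls. Of the 32 genes, 5 rose (LOX, HIF1A, LDHB, BNIP3L and BNIP3) and 2 fell (PFKL and GAPDH), against 21.1% and 11.1% of all tested genes (32.2% in either direction). The median was -0.030 against 0.021 for all genes. Without LOX, ADM and EPAS1, which reached 1 TPM in some groups only, 4 of 29 rose and 2 fell. LOX rose from 4.22 ± 0.214 to 7.35 ± 0.585 TPM (0.67, SE 0.062, adjusted p = 9.7e-05 with no minimum level) and LDHB from 12.8 ± 0.181 to 17.5 ± 1.22 TPM (0.42, SE 0.042, adjusted p = 1.5e-04), each in 3 of 3 libraries without overlap. HIF1A rose by 0.44 (adjusted p = 0.024), BNIP3L by 0.27 (adjusted p = 0.013) and BNIP3 by 0.27 (adjusted p = 0.026). PFKL (-0.40, adjusted p = 0.039) and GAPDH (-0.27, adjusted p = 0.048) fell, with replicate 3 inside the control range for both. Of 18 fits that each left out 1 library, the GAPDH call ended in 17, with values from -0.42 to -0.13, and the PFKL call in 5, with values from -0.60 to -0.21. Both calls also ended with no minimum level. All 8 genes of lower glycolysis had changes below 0, of which only GAPDH was called. The replicate block also called ALDOA, ALDOC, ENO1, PGAM1, PGK1 and TPI1 lower. Median-of-ratios scaling also called ALDOA, ENO1, PGAM1 and TPI1, and a minimum of 5 TPM ENO1 and PGAM1. With copies added, BNIP3 had a value of -0.016, and PGAM1 (-0.28, adjusted p = 0.047) and TPI1 (-0.22, adjusted p = 0.048) were called.

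These values differed between the guide 1 DMSO libraries. The 16 glycolytic enzymes summed to 6502, 7756 and 9334 TPM in guide 1 DMSO replicates 1, 2 and 3, the libraries whose mitochondrially encoded share was 73.8%, 69.9% and 57.2%, against 8803, 8853 and 9589 TPM in control DMSO. The part of that share in the result was not tested. With replicate 3 as the only guide 1 DMSO library, LOX and LDHB alone were called, and HIF1A, PFKL and GAPDH had values of 0.062, 0.022 and 0.016. Leaving out replicate 3 instead gave 18 calls (6 higher and 12 lower), and keeping the mitochondrially encoded rows gave 1 higher and 21 lower, with HIF1A, LDHB, BNIP3 and BNIP3L below 0 and the median of all genes at -0.32. In limma on the 6 libraries of this comparison alone, no gene was called, with 6 of 32 at an unadjusted p under 0.05.

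In Enza, HK2 and both lactate dehydrogenase genes were higher with guide 1 than with the control guide. HK2 (0.86, SE 0.054, adjusted p = 1.8e-08), LDHB (0.51, SE 0.042, adjusted p = 3.6e-07), LDHA (0.46, SE 0.057, adjusted p = 2.1e-05), LOX (0.37, adjusted p = 5.4e-04 with no minimum level) and BNIP3 (0.32, adjusted p = 0.0052) rose. ALDOC (-0.41, adjusted p = 0.026), BNIP3L (-0.27, adjusted p = 0.0018), HK1 (-0.26, adjusted p = 5.6e-05) and EPAS1 (-0.18, adjusted p = 6.5e-04 with no minimum level) fell. Of all genes 16.3% were higher and 14.3% lower (30.6% in either direction). Without LOX, ADM and EPAS1, 4 of 29 rose and 3 fell. HK2 stood 1.96-fold above control cells in Enza, with libraries of 10.7 TPM or more against 5.88 TPM or less, and LDHA 1.38-fold above, at 401 TPM or more against 315 TPM or less. In the main model the entry of glucose (SLC2A1 0.21, adjusted p = 0.16) and the enzymes of lower glycolysis other than ALDOC did not pass. ENO1 did when summed with its copies (0.21, adjusted p = 0.020). With limma on only the libraries of this comparison, SLC2A1 (0.21, adjusted p = 0.016), ENO1 (0.20, adjusted p = 0.012) and PGK1 (0.14, adjusted p = 0.031) passed. HIF1A and ADM, the latter under 1 TPM in these libraries, were also called higher there, and NDRG1, PFKFB4 and PFKM lower. HK2 alone of these genes was called with the mitochondrially encoded rows kept, and the BNIP3 call was lost with its copies added (adjusted p = 0.062). KLK3 was 3.93 higher on the log2 scale in the same libraries (adjusted p = 1.7e-14).

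**Figure D5:**
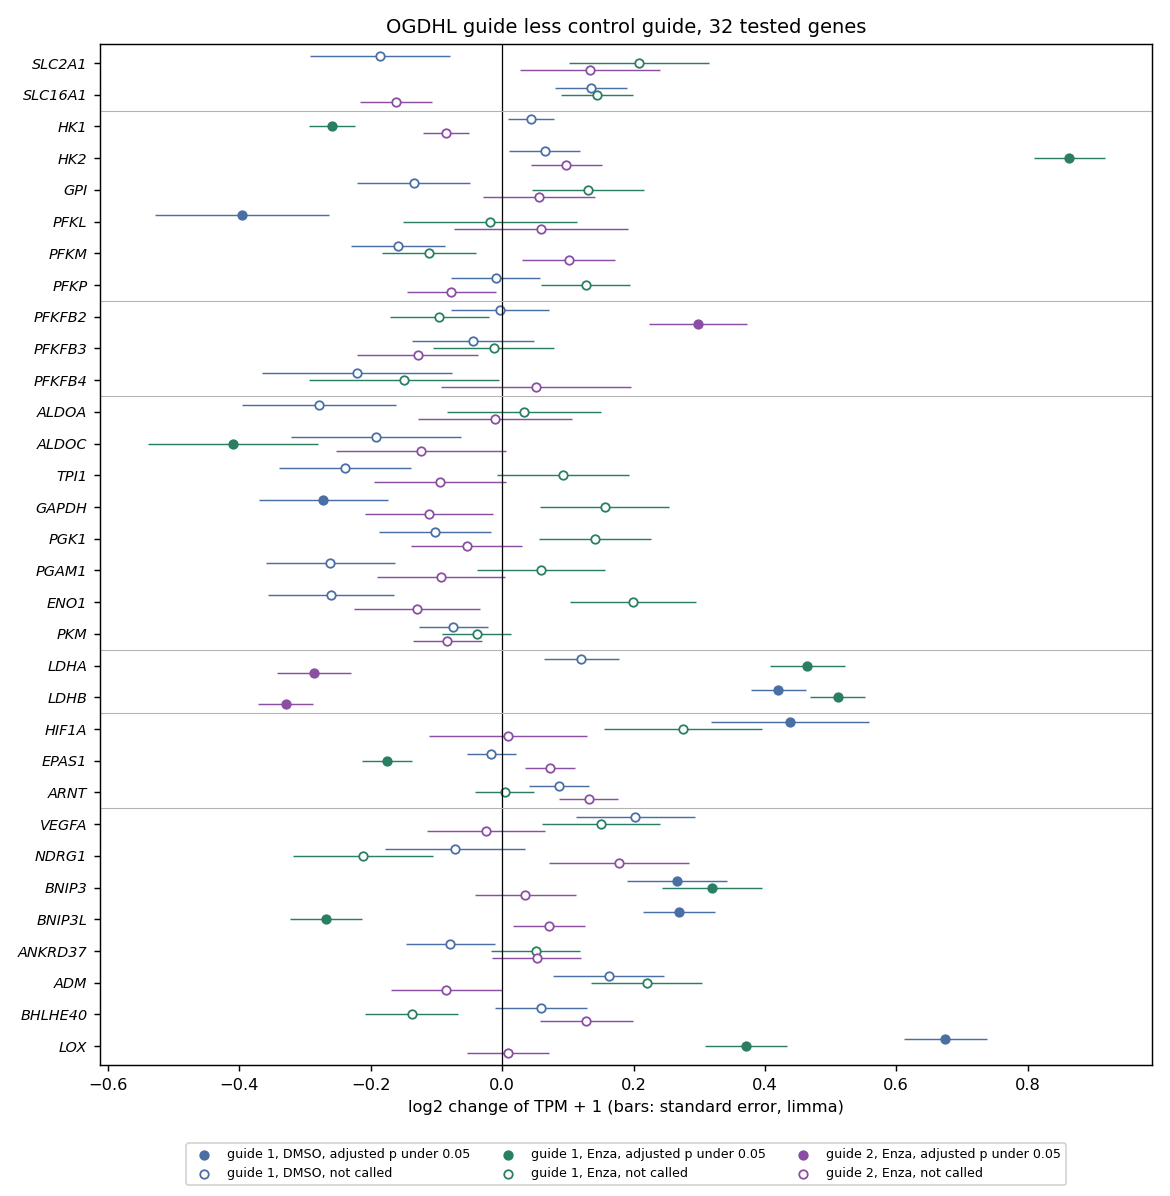
Difference between an OGDHL guide and the control guide for 32 genes, in order of role. The x axis is the difference of mean log2(TPM + 1), bars are the limma standard error, and filled points have an adjusted p under 0.05; the libraries labelled guide 2 in DMSO are not drawn. HK2 with guide 1 in Enza (0.86) and LOX with guide 1 in DMSO (0.67) lie farthest from 0; HIF1A, LDHB, BNIP3 and BNIP3L with guide 1 in DMSO lie below 0 when mitochondrially encoded rows are kept.

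Guide 2 in Enza gave 3 calls against the control guide. PFKFB2 rose (0.30, adjusted p = 0.016), LDHB (-0.33, adjusted p = 9.2e-05) and LDHA (-0.29, adjusted p = 0.0035) fell, and 29 of 32 genes did not pass, against 8.97% and 5.02% of all genes called higher and lower (14% in either direction). LDHA and LDHB were thus lower with guide 2 and higher with guide 1, relative to the same control Enza libraries. HK2 had a change of 0.10, adjusted p = 0.29 and HIF1A of 0.0087, adjusted p = 0.98. No gene of the 32 was called with the mitochondrially encoded rows kept, where 2 had an unadjusted p under 0.05 in limma, and 8 were called when only the 6 libraries of this comparison were fitted.

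In DMSO, the libraries labelled guide 2 had less RNA of glycolysis and more of several hypoxia genes than control cells. Of the 16 glycolytic enzymes 14 fell and 2 (HK1 and PFKL) rose, and of the 8 tested hypoxia response genes beyond the factors 6 rose and 2 (LOX and ANKRD37) fell, or 5 and 1 without ADM and LOX. Over the 32 genes this was 17 lower and 11 higher, against 24% and 50.9% of all genes (74.9% in either direction), with a median of -0.23 against 0.23 for all genes. The largest falls on the log2(TPM + 1) scale were in LDHA (3.18-fold, log2 change -1.66, adjusted p = 1.2e-12), HK2 (3.59-fold, -1.65, adjusted p = 7.2e-13), LOX (-1.55, adjusted p = 3.4e-11 with no minimum level), ENO1 (-1.28, adjusted p = 1.2e-08) and GPI (-1.20, adjusted p = 6.3e-09). Relative to the median of all genes LDHA and HK2 were at -1.89 and -1.87. ADM (4.39-fold, 1.73, adjusted p = 3.4e-10 with no minimum level), NDRG1 (0.93, adjusted p = 1.4e-06), BNIP3L (0.83, adjusted p = 3.0e-09) and PFKFB2 (0.76, adjusted p = 2.7e-07) rose, and relative to that median they were at 1.51, 0.71, 0.60 and 0.53. With median-of-ratios scaling, which put the median of all genes at -0.068, 21 genes were lower and 6 higher, HIF1A (0.071), VEGFA (0.014) and BNIP3 (0.17) were no longer called, and BHLHE40 became lower (-0.18). The PGAM1 call was lost with its copies added (-0.21, adjusted p = 0.070), and with mitochondrially encoded rows kept those of ALDOA, ALDOC, ANKRD37, BHLHE40, GAPDH, LDHB, PFKL, PFKM, PGAM1, PKM and VEGFA were lost. These libraries also carried the higher leukocyte marker sum and the OGDHL level given above, whose part in the result was not tested.

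Whether the response to Enza itself differed between guides was tested as an interaction. With guide 1, the change was higher than in control cells for HK2 (0.80, adjusted p = 3.4e-06), ENO1 (0.46, adjusted p = 0.023), GAPDH (0.43, adjusted p = 0.035) and LDHA (0.34, adjusted p = 0.0062). The change was lower for BNIP3L (-0.54, adjusted p = 1.8e-04), HK1 (-0.30, adjusted p = 5.0e-04), LOX (-0.30, adjusted p = 0.027 with no minimum level) and EPAS1 (-0.16, adjusted p = 0.040, or 0.018 with no minimum level). Of all genes 11.6% were higher and 15.2% lower (26.8% in either direction). Without LOX, ADM and EPAS1, 4 of 29 were higher and 2 lower. LOX was close to 0 TPM in Enza, and its difference was 0.42 with a pseudocount of 0.1. The ENO1 and GAPDH differences were 0.16 and 0.14 with guide 1 DMSO replicate 3 alone and were no longer called, HK1 was at 0.0084 with mitochondrially encoded rows kept, and HK2 remained called under every alternative. The EPAS1 call ended in 12 of 15 fits that each left out 1 library and could be made, with mitochondrially encoded rows kept, with pseudocounts of 0.1 and 5, with the replicate block and with replicate 3 alone. Mitochondrially encoded rows kept also ended the calls of ENO1, GAPDH, LDHA (0.74, adjusted p = 0.056), BNIP3L and LOX. Leaving out 1 library at a time ended the GAPDH call in 8 of 18 fits. TPI1 was called when summed with its copies (0.37, adjusted p = 0.028). Median-of-ratios scaling gave 8 genes higher and 4 lower with guide 1, against 2863 and 2260 of all genes. It added GPI (0.30, adjusted p = 0.035), PGAM1 (0.36, adjusted p = 0.033), SLC2A1 (0.43, adjusted p = 0.017) and TPI1 by itself (0.37, adjusted p = 0.028). With guide 2 the difference rests on the libraries labelled DMSO: 12 genes were higher, led by HK2 (1.75, adjusted p = 5.4e-11), LOX (1.56, adjusted p = 3.1e-09 with no minimum level), LDHA (1.38, adjusted p = 1.5e-09) and GPI (1.26, adjusted p = 3.8e-07), and 9 were lower, led by ADM (-1.82, adjusted p = 1.8e-08 with no minimum level), and EPAS1 (-1.53), which passed the minimum for testing only through the libraries labelled guide 2 in DMSO and is given as a description, against 19.5% and 43.7% of all genes (63.2% in either direction), whose median was -0.20. With median-of-ratios scaling 20 were higher and 5 lower: HIF1A (-0.091, adjusted p = 0.69), VEGFA (-0.068, adjusted p = 0.60), BNIP3 (-0.17, adjusted p = 0.21) and PFKFB2 were no longer called, and ANKRD37 (0.49), ARNT (0.33) and BHLHE40 (0.28) were higher. The HIF1A call also ended in 14 of 18 fits that each left out 1 library, and with no minimum level, a pseudocount of 0.1 or the replicate block.

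Other genes of the same pathways were counted from lists, beside 23.1% of all tested genes higher and 24.8% lower with Enza in control cells. Of 25 tested further genes of glycolysis and glucose handling (43 listed), 8 rose and 9 fell, and ENO2, the neuronal enolase, rose from 12.8 ± 1.47 to 69.2 ± 0.758 TPM (2.35, adjusted p = 7.8e-10) while ENO1 fell. SLC2A12, a glucose carrier known to respond to androgen, fell from 6.84 ± 0.268 to 2.48 ± 0.111 TPM (-1.17, adjusted p = 1.6e-11). Of 13 tested regulators of the hypoxia-inducible factors (15 listed), 5 rose and 5 fell, and CITED2, which competes with HIF-1 alpha for the coactivators EP300 and CREBBP, rose from 263 ± 10.3 to 1559 ± 73.7 TPM (2.56, adjusted p = 2.8e-13). Of 26 tested further hypoxia-inducible targets (31 listed), 16 fell and 3 rose, and DDIT4, an inhibitor of mTOR signalling, fell from 938 ± 57.2 to 483 ± 10.5 TPM (-0.95, adjusted p = 1.9e-05). In guide 1 cells 13 of these 26 targets fell and 1 rose, against 23.3% and 19.5% of all genes, and in guide 2 cells 16 fell and 5 rose, against 49.7% and 23%. The medians of the 26 targets were -0.27, -0.18 and -0.29 with the control guide, guide 1 and guide 2, against -0.0090, -0.0044 and -0.20 for all genes.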

How the data were processed

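RNA from 18 samples of 16D cells was extracted with RNeasy columns and made into stranded mRNA libraries (KAPA mRNA HyperPrep), read in pairs on a NovaSeq X Plus, per the labels' protocols. Per the submitters' processing notes, STAR and GRCh38 were used. How reads were counted (tool, annotation, strand, shared reads) is not given in the sources used here. What the authors deposited is 1 table of TPM with 37347 rows, and read numbers cannot be had from it, so the precision of a value is known only from the spread of 3 libraries.

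Each column was rescaled to 1000000 after 37 mitochondrially encoded rows were dropped. The 10345 rows without a gene name (4.24% to 9.68% of a library) counted towards that total before they were left out, and 3 symbols with at least 5 rows each (69 rows) were also dropped. Another 32 symbols with several rows were summed, which left 26863. Differences of log2(TPM + 1) were tested with limma 3.58.1 (R 4.3.3, intensity trend) over 16067 genes at 1 TPM or more in 3 or more libraries, in 1 model of 6 group means over 18 libraries (12 residual degrees of freedom), with Benjamini-Hochberg adjustment over all genes and calls at an adjusted p under 0.05. On data simulated for Enza against DMSO in control cells (16067 genes, 200 changed), the test recovered 82.6%, 96.0% and 100.0% of changes of 0.5, 1 and 2 on the log2 scale (3 simulations), and 4.44% of calls were false. The changed genes were drawn from those above 3 on the log2(TPM + 1) scale in control DMSO, with independent normal noise. Shifts shared by the genes of a library and the far larger share of genes called in these data were not simulated, so these rates need not hold here. Tables and plots were made with Python 3.11.15, pandas 2.3.3, numpy 2.4.6 and matplotlib 3.10.9.

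The 34 genes and the other gene lists were chosen with earlier results of these data known. Library values were printed for the genes that changed most in each comparison of 2 groups (4 a direction, among called genes with 5 TPM or more in the higher group), and for 12 genes whatever their change (HIF1A, EPAS1, ARNT, HK1, HK2, LDHA, LDHB, SLC2A1, SLC16A1, SLC16A3, CA9 and VEGFA). Of the other lists, the 4 called genes of largest change in control cells were named. Alternatives were the deposited TPM with mitochondrially encoded rows, median-of-ratios scaling, pseudocounts of 0.1 and 5, no minimum or 5 TPM, only the libraries of a comparison, the replicate number as a block, and each library left out. A further 3 alternatives were added after seeing the data: all libraries labelled guide 2 in DMSO left out, guide 1 in DMSO by replicate 3 alone, and each gene summed with its near-identical copies. Promoter sequences are from RefSeq (GRCh38.p14). NDRG1, BNIP3L, VEGFA, PFKFB2 and SLC16A1 had no window.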

Additional observations from a re-analysis of the deposited data

Results flagged for a closer look

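By limma's interaction test, the response to Enza differed from that of control cells for 8 of 32 genes with guide 1 and 21 with guide 2. Over all tested genes it differed for 26.8% and 63.2%, so both counts are near the shares of all genes. These comparisons share the control libraries, and those with guide 2 rest on the libraries labelled DMSO that stood apart, where the median of all genes was -0.20. Each value is the change with the OGDHL guide less that with the control guide, on the log2(TPM + 1) scale.

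Among hexose enzymes, HK2 differed by 0.80 with guide 1 and 1.75 with guide 2. HK1, the other hexokinase, differed by -0.30 and -0.69, the opposite sign to HK2, although the guide 1 value of HK1 was 0.0084 with mitochondrially encoded rows kept. GPI differed by 1.26, PFKM by 0.49, PFKP by 0.84 and PFKFB2 by -0.46 with guide 2. The lactate carrier SLC16A1 differed by 0.36 with guide 2.

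In lower glycolysis, ENO1 differed by 0.46 with guide 1 and 1.15 with guide 2, and GAPDH by 0.43 and 0.38. TPI1 (0.53), PGK1 (0.69) and PKM (0.25) differed with guide 2. LDHA differed by 0.34 with guide 1 and 1.38 with guide 2, while LDHB passed with neither, except with guide 2 under median-of-ratios scaling (0.31).

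Of the hypoxia genes, EPAS1 differed by -0.16 and -1.53, the latter a description, since EPAS1 reached 1 TPM only in the libraries labelled guide 2 in DMSO, and BNIP3L by -0.54 and -0.75, with guides 1 and 2. With guide 2, HIF1A (-0.41), VEGFA (-0.39), NDRG1 (-0.75), BNIP3 (-0.49) and ADM (-1.82) differed, of which HIF1A (-0.091), VEGFA (-0.068) and BNIP3 (-0.17) did not pass with median-of-ratios scaling. LOX differed by -0.30 with guide 1 and 1.56 with guide 2, where it was already under 1 TPM in the libraries labelled DMSO.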

How the results depend on the processing

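With each library left out in turn, 23 to 27 genes were called for Enza in control cells, 23 to 26 with guide 1 and 23 to 29 with guide 2, 8 to 13 for guide 1 in Enza, 24 to 30 for guide 2 in DMSO, 2 to 4 for guide 2 in Enza and 18 to 25 for the guide 2 interaction. The count for guide 1 in DMSO ran from 2 to 18, with 2 when control DMSO replicate 1 or guide 1 DMSO replicate 1 or 2 was left out and 18 without guide 1 DMSO replicate 3, and LOX and LDHB were called in every case. Its interaction with Enza ran from 4 to 17, the latter without guide 1 DMSO replicate 3. All-gene counts ran from 156 to 9091 for guide 1 in DMSO (5169 with all libraries), from 1343 to 3254 for guide 2 in Enza (2249) and from 3327 to 7592 for the guide 1 interaction (4306).

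With mitochondrially encoded rows kept, 12 genes were called for Enza with guide 1 (5 higher), 22 for guide 1 in DMSO, 1 for guide 1 in Enza, 17 for guide 2 in DMSO (8 higher), 0 for guide 2 in Enza (lowest adjusted p = 0.29, 2 at an unadjusted p under 0.05 in limma), 1 for the guide 1 interaction and 13 for the guide 2 interaction (6 higher). Over all genes this scaling gave 2796 calls for Enza in control cells (7698 without these rows), 4007 with guide 1 (6882), 7757 for guide 1 in DMSO (41 higher and 7716 lower), 948 for guide 1 in Enza (4918), 7920 for guide 2 in DMSO (12038), 168 for guide 2 in Enza, and 932 and 5849 for the interactions of guides 1 and 2 (4306 and 10156). Changes that took the other sign were, for Enza with guide 1, ALDOA 0.041, ARNT 0.080, GPI 0.027, HK1 0.0075, PKM 0.012 and SLC16A1 0.065. For guide 1 in DMSO they were ARNT -0.32, BHLHE40 -0.42, BNIP3 -0.22, BNIP3L -0.15, HIF1A -0.043, HK1 -0.29, HK2 -0.36 and LDHB -0.033, and for its interaction HK1 0.0084.

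Median-of-ratios scaling gave 12 calls for guide 1 in DMSO (5 higher) and 5 for guide 2 in Enza (1 higher). It turned, for Enza with guide 2, ALDOA to 0.018, ARNT to 0.17, GAPDH to 0.28 and PKM to 0.18. For guide 2 in DMSO it turned ARNT to -0.23, BHLHE40 to -0.18 and PFKFB3 to -0.25, and for the guide 2 interaction BHLHE40 to 0.28. With only the libraries of a comparison fitted, 0 genes were called for guide 1 in DMSO (lowest adjusted p of the 32 = 0.22; 6 of the 32 and 3363 of all genes at an unadjusted p under 0.05 in limma), 17 for guide 1 in Enza, 8 for guide 2 in Enza and 5 for the guide 1 interaction. Over all genes it called 3327 for Enza with guide 1, 0 for guide 1 in DMSO and 3569 for guide 2 in Enza.

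With guide 1 in DMSO by replicate 3 alone, whose spread is taken from the other groups, 2 of the 32 genes and 25 of all genes were called against control cells. For Enza with guide 1 this turned GAPDH to -0.26, PFKL to -0.060 and TPI1 to -0.18, for guide 1 in DMSO it turned GAPDH to 0.016 and PFKL to 0.022, and for the interaction PFKM to -0.16. A pseudocount of 0.1 turned the LOX interaction with guide 1 to 0.42, and summing BNIP3 with its copies turned its guide 1 change in DMSO to -0.016. Without the libraries labelled guide 2 in DMSO, which lent the model their spread, 180 of 186 gene results kept direction and call, and 6 lost the call: PFKM with Enza in control cells, ALDOA and PFKL with Enza in guide 1 cells, GAPDH and PFKL for guide 1 in DMSO, and the GAPDH interaction.

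Correlations between the deviations of same-numbered samples ran from -0.29 to 0.11, and the numbers were not used as pairs in the main model. The values farthest from 0 were those for Enza against DMSO with guide 1 (-0.154, -0.125 and -0.292). With guide 1 against the control guide each sample correlated best with its own number, in DMSO (0.056, 0.052 and 0.092) and in Enza (0.11, 0.051 and 0.091), a hint from the data and not from the design. The replicate block gave 18 calls for guide 1 in DMSO (6 higher), against 7 without it, so the count there depends on whether the numbers are pairs. It kept 271 of 288 gene results. The causes of these changes were not tested, and depth is unknown, so what it limits cannot be given.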
